A study of Mus musculus with 12 samples.

Results

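The peroxisome proliferator-activated receptors (PPARs) and the proteins that work with them were followed in mouse liver, with and without overexpression of E4BP4 in that organ. The group held 7 genes of the 48440 in the deposited tables: the receptors Ppara, Ppard and Pparg, their dimer partner Rxra, the coactivators Ppargc1a and Ppargc1b, and the corepressor Ncor1. Each was found by its symbol, and all 7 passed the filter on low counts that left 15244 genes for testing. The 7 genes were chosen by pathway with their measured differences between these samples already known, those of Ppard in particular. Their values are therefore given as a description, with no p-value for any of the 7, and a statement that a gene passed the threshold of an adjusted p below 0.05 says only where it stood in the test of all genes.

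Liver poly(A) RNA of male C57BL/6 mice, aged 8 weeks, was sequenced in 12 libraries, with 3 in each of 4 groups. Wild-type mice (WT) and transgenic mice (TG), in which E4BP4 is overexpressed specifically in the liver, were each sampled at ZT2 and ZT14, where ZT counts the hours since lights on. All mice were on a normal chow diet with 12 h of light a day and 12 h of darkness, and had no treatment, so ZT2 falls soon after the start of the light period and ZT14 soon after that of darkness. Neither the promoter of the transgene nor the number of founder lines is given by the labels. The sample titles number the livers within each group, but do not state outright that these are separate animals. Errors below are therefore spreads between libraries that may in part be technical.

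PPARs are nuclear receptors that are activated by fatty acids and their derivatives. Each binds DNA as a dimer with a retinoid X receptor (RXR), of which RXRα is the main form in liver, at repeats of the hexamer AGGTCA spaced by a single base. In liver, PPARα drives fatty acid oxidation and ketone body production in fasting, PPARδ is found in most tissues and has been tied to lipid synthesis in the dark, feeding phase of mice, and PPARγ, best known from fat cells, is low in healthy liver and rises in fatty liver. PGC-1α and PGC-1β, the products of Ppargc1a and Ppargc1b, are coactivators of mitochondrial and fasting genes, and NCOR1 is a scaffold that carries histone deacetylases to receptors without ligand. E4BP4, the product of Nfil3, is a transcriptional repressor that binds D-box elements of clock-controlled genes.

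The start regions of the receptor genes are shown because Ppard passed between genotypes at ZT2 and Pparg between times in WT, with Ppara as the main receptor of liver, and because E4BP4 and the PPARs are known for their binding motifs. The windows run from 250 bases before to 50 bases after an annotated start in RefSeq on GRCm38.p6, are written 5′ to 3′ on the gene's strand, and carry any match to the motifs below in capitals. The Ppard window is chr17:28232504-28232803, the Ppara window chr15:85735526-85735825, and the Pparg windows, all on the plus strand like the others, are chr6:115360894-115361193 and chr6:115362099-115362398.
Ppard: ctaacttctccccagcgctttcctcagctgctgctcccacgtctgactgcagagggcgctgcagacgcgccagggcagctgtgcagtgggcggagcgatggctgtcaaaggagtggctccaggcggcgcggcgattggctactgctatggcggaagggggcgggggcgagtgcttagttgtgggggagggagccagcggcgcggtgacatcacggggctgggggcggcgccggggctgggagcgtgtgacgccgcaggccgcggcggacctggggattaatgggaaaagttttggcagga
Ppara: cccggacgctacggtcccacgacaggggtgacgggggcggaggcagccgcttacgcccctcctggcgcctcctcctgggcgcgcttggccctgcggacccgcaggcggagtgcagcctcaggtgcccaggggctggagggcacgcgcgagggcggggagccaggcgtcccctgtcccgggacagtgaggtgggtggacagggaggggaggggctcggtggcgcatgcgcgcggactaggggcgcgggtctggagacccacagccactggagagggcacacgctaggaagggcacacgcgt
Pparg, first start: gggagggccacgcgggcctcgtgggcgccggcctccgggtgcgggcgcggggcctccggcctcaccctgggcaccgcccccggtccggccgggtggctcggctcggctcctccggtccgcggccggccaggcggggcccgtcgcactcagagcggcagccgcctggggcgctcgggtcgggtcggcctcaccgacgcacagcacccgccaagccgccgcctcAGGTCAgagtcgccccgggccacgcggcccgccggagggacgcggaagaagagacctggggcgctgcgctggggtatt
Pparg, second start: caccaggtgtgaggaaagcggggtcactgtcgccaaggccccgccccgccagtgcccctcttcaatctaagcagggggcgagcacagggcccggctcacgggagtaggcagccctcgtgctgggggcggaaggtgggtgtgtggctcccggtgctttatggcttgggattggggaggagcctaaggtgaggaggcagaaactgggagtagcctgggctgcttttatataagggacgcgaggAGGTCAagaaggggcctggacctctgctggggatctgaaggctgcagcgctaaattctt
Both strands were searched for the D-box TTANGTAA, the E-boxes CACGTG and CACGTT that bind clock factors, the hexamer AGGTCA, and a looser pattern of 2 copies of AGGNCA in a row with 1 base between them, which can contain the hexamer. Of the 32851 windows of this kind in the table, 2.32% held the D-box, 7.15% CACGTG, 4.68% CACGTT, 16.3% the hexamer and 0.381% the spaced repeat. The Ppard and Ppara windows held none of these letters. AGGTCA lay at -28 to -23 from the first Pparg start and at -9 to -4 from the second, and a further Pparg window at chr6:115421816-115422115 held no match. For Ncor1, 1 of 2 windows held CACGTT at -44 to -39, and for Rxra 1 of 2 windows held the hexamer on both strands, at -87 to -82 and at -48 to -43, while the Ppargc1a window held no match. Of the 7 genes 6 had a window, and Ppargc1b was not searched. By letters these windows also differed in composition, with 68.3% G and C for Ppard and 74.7% for Ppara against a median of 52.7% over all windows. A match describes letters only, and none of these windows was measured for binding.

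The deposited total gene reads numbered 16035121 to 23981021 per library, with 81.2% to 85.5% of them unique and 9.79% to 11.9% intronic. On the second principal component of the 2000 most variable genes, which held 16.5% of the variance, replicate 2 of TG at ZT2 and replicate 3 of TG at ZT14 stood at -30.8 and -33.2 and the other libraries at 2.0 to 12.1, so results that turn on them are given with and without them. Nfil3, the overexpressed gene, stood in CPM (read counts scaled to a common library size, with TMM factors) at 48.8, 29.4 and 37.6 in WT and 71.1, 69.8 and 62.6 in TG at ZT2, and at 28.1, 40.4 and 24.6 in WT and 63.8, 93.9 and 77.9 in TG at ZT14. No TG library fell within the WT range at either time. By edgeR's quasi-likelihood test its log2 fold change at ZT2 was 0.81 (SE 0.21, adjusted p = 0.359), and the rise passed at ZT14, with 1.34 (SE 0.21, adjusted p = 0.0306). The hepatocyte markers Alb, with 697408 to 1424143 reads, and Hnf4a, with 9572 to 20021, were abundant in every library.

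Levels can be compared between genes only per length of transcript, and for that the deposited RPKM values (exon reads scaled by exon length and library size) were used. Rxra was the most abundant of the 7 genes at 58.4 to 74.7 RPKM over the 12 libraries, followed by Ppara at 14.1 to 30.9 and Ncor1 at 5.87 to 7.55. These ranges did not overlap. Ppard stood at 2.07 to 2.52 RPKM in the 9 libraries outside TG at ZT2 and at 5.35, 6.91 and 7.29 in the TG libraries at ZT2, where it overlapped Ncor1. Pparg at 1.62 to 4.23, Ppargc1b at 0.979 to 2.74 and Ppargc1a at 0.455 to 1.21 overlapped their neighbours in this order. Of the summed RPKM of the 3 receptors, Ppara made up 63.3% to 86.4%. Ppard made up 12.6%, 9.28% and 9.38% in WT and 18.1%, 29.6% and 22.8% in TG at ZT2, and 6.38% to 7.62% in all libraries at ZT14.

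**Figure D1:**
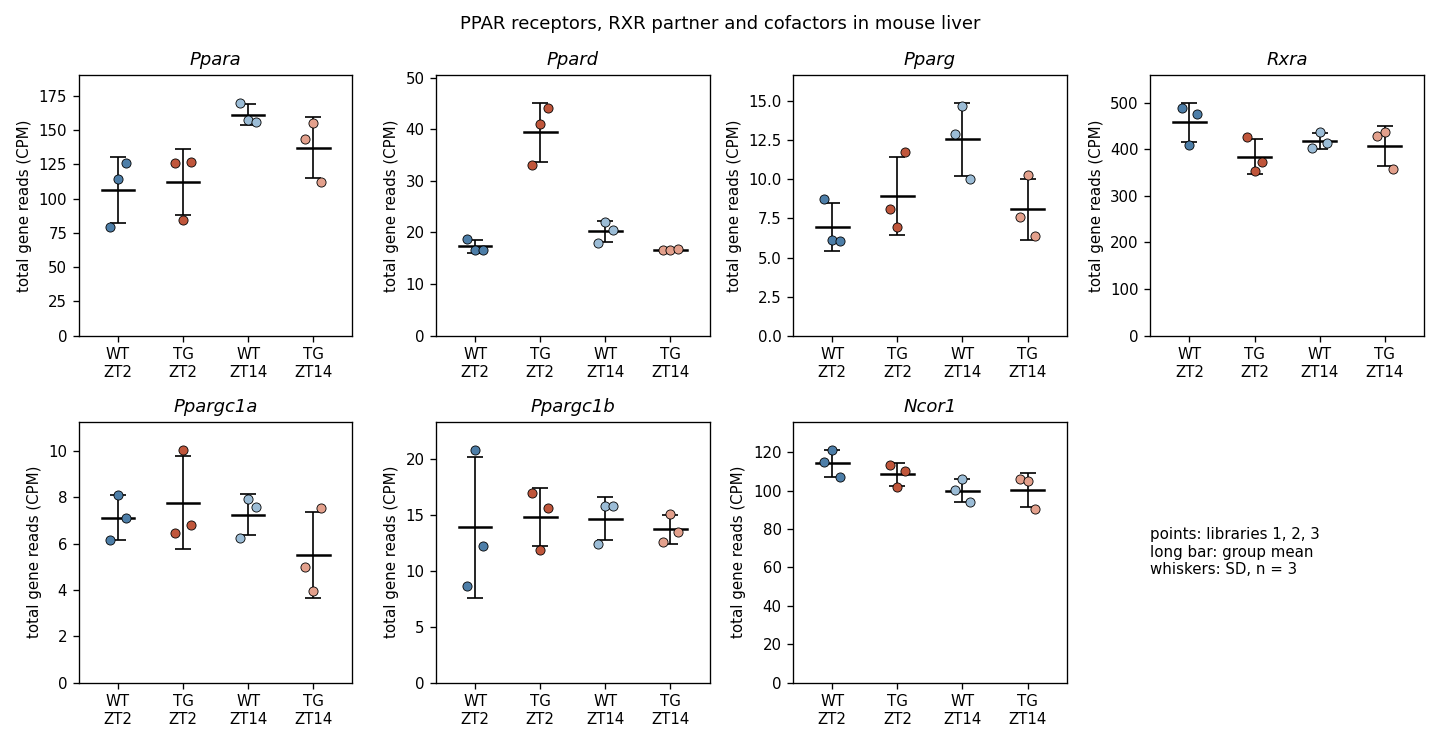
Total gene reads in CPM (y axis) of the 7 genes in each of the 12 libraries by group (x axis), with the group mean and the SD over 3 libraries. The Ppard libraries of TG at ZT2 lie at 33.0 to 44.2 CPM and all other Ppard libraries at 16.6 to 22.1 CPM.

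Ppard (ENSMUSG00000002250, chr17:28232754-28301469, plus strand, GRCm38, with no overlapping gene in the tables) encodes PPARδ and was high in a single group. At ZT2 it stood at 18.8, 16.7 and 16.6 CPM in WT and at 33.0, 41.0 and 44.2 CPM in TG. At ZT14 it stood at 18.1, 22.1 and 20.4 CPM in WT and at 16.6, 16.7 and 16.7 CPM in TG. Every TG library at ZT2 lay above all of the other 9 libraries, and at ZT14 the TG libraries lay below the WT libraries. How many of all genes have groups that separate was not counted, so separations given here and below are descriptions only. Group means were 17.3 ± 1.24 and 39.4 ± 5.75 CPM at ZT2 and 20.2 ± 2.04 and 16.7 ± 0.0623 CPM at ZT14 (SD, n = 3, WT before TG). The log2 fold change of TG against WT was 1.18 (SE 0.11) at ZT2, or 2.27-fold, and -0.28 (SE 0.11) at ZT14.

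Between times, Ppard differed in log2 terms by 0.22 (SE 0.11) in WT, ZT14 against ZT2, and by -1.24 (SE 0.11) in TG, which is 2.36-fold less at ZT14. The TG time difference minus the WT one was -1.46 (SE 0.16). At ZT2 Ppard was the only one of the 7 genes past the threshold, where 0.0722% of all tested genes passed, and at ZT14 none of the 7 passed, where 0.0853% of all genes did. DESeq2 also called none of the 7 at ZT14, and 50 of all genes. For TG against WT over both times none of the 7 passed by edgeR (Ppard 0.45, SE 0.08), where 0.144% of all genes did. DESeq2 called 1 of the 7 there, Ppard, and 73 of all genes. Ppard was the only one of the 7, and the only gene of 15244, past the threshold for the difference between the time differences, a share of 0.00656%, while 912 genes had an unadjusted p below 0.05 and DESeq2 called 21 genes. Since the gene was chosen with these values known, nothing further is read from the calls. The ZT2 call was kept whichever of the 12 libraries was omitted, with log2 fold changes of 1.09 to 1.29. The call for the difference between the time differences was lost without replicate 2 of TG at ZT2 (-1.44), without replicate 2 of TG at ZT14 (-1.46) and without replicate 3 of WT at ZT14 (-1.45), and without both libraries that stood apart (-1.44).

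Exon, junction and intron reads of Ppard did not move alike. Exon reads stood at 11.7, 11.2 and 11.2 CPM in WT and 25.9, 31.3 and 33.5 CPM in TG at ZT2, and at 9.14 to 11.6 CPM in the 6 libraries at ZT14. Reads that cross exon junctions, which come from spliced RNA, stood at 4.80, 4.05 and 4.71 CPM in WT and 9.69, 12.4 and 10.9 CPM in TG at ZT2, and at 3.14 to 4.59 CPM at ZT14. In both classes the TG libraries at ZT2 lay apart from all others. Intron reads, many of which come from unspliced RNA, stood at 7.06, 5.44 and 5.43 CPM in WT and 7.15, 9.67 and 10.7 CPM in TG at ZT2, at 7.28, 11.4 and 8.84 CPM in WT at ZT14 and at 6.63, 6.84 and 7.59 CPM in TG at ZT14. The intron values of TG at ZT2 lay above those of WT at ZT2 but overlapped those of WT at ZT14.

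Fitted on exon reads alone, the log2 fold change of Ppard in TG against WT at ZT2 was 1.43 (SE 0.10), and on intron reads alone 0.54 (SE 0.20), which did not pass. Introns held 21.7% to 24.2% of the gene's reads in TG at ZT2 and 32.7% to 51.5% in the other 9 libraries. In TG, the difference of ZT14 against ZT2 was -1.66 (SE 0.10) on exon reads and -0.41 (SE 0.19) on intron reads. In WT it was -0.04 (SE 0.10) on exon reads and 0.51 (SE 0.19) on intron reads, so the WT difference on total reads had opposite signs in its parts.

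**Figure D2:**
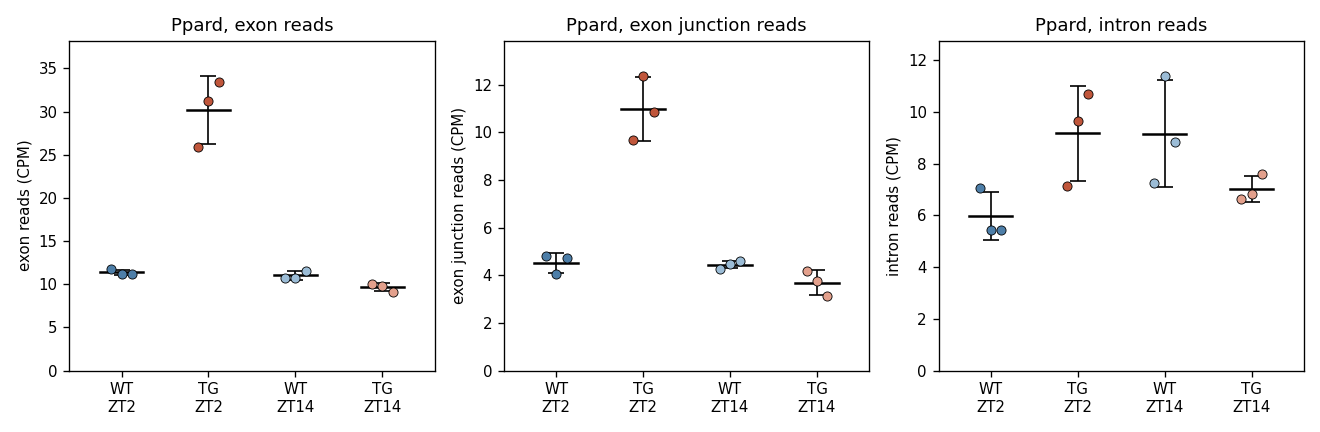
Exon reads, exon junction reads and intron reads of Ppard in CPM (y axes) in each library by group (x axis), with group means and SD over 3 libraries. Exon reads of TG at ZT2 lie at 25.9 to 33.5 CPM against 9.14 to 11.7 CPM elsewhere, while intron reads of TG at ZT2 overlap those of WT at ZT14.

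Ppara (ENSMUSG00000022383, chr15:85734983-85802819, plus strand) encodes PPARα, the receptor of the fasting response. Its WT libraries were all higher at ZT14 than at ZT2, a difference that did not pass. At ZT2 it stood at 79.6, 114 and 126 CPM in WT and at 126, 84.0 and 126 CPM in TG. At ZT14 it stood at 169.8, 157 and 156 CPM in WT and at 143, 155 and 112 CPM in TG. The WT libraries did not overlap between times, whereas the TG libraries did. The log2 difference of ZT14 against ZT2 was 0.60 (SE 0.19) in WT and 0.29 (SE 0.19) in TG, and the difference between them was -0.31 (SE 0.26). Between genotypes the log2 fold change was 0.07 (SE 0.19) at ZT2 and -0.23 (SE 0.18) at ZT14, where all TG libraries lay below all WT libraries by a narrow gap. Ppara did not pass in WT by edgeR (0.60) but was called there by DESeq2 (0.59), with exon reads alone (0.60), with library sizes alone (0.65), with no filter (0.61), and without replicate 2 of TG at ZT2 (0.58) or both libraries that stood apart (0.59). Without replicate 1 of WT at ZT2 it was 0.42.

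Pparg (ENSMUSG00000000440, chr6:115360951-115490399, plus strand) encodes PPARγ and rested on few reads, 97 to 344 per library, of which 90.3% to 96.9% mapped uniquely. At ZT2 it stood at 8.75, 6.14 and 6.05 CPM in WT and at 8.08, 6.98 and 11.8 CPM in TG. At ZT14 it stood at 12.9, 14.7 and 10.04 CPM in WT and at 7.57, 10.3 and 6.40 CPM in TG. In WT every library at ZT14 lay above every library at ZT2, while in TG the times overlapped. The log2 difference of ZT14 against ZT2 was 0.84 (SE 0.24), or 1.79-fold, in WT and -0.15 (SE 0.24) in TG, and the difference between them, -0.99 (SE 0.33), did not pass. Between genotypes the log2 fold change was 0.35 (SE 0.24) at ZT2 and -0.64 (SE 0.23) at ZT14.

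Pparg was the only one of the 7 genes past the threshold for time in WT, where 9.17% of all tested genes passed, 4.85% higher and 4.32% lower at ZT14. Ppard was the only one past it for time in TG, where 12.2% passed, 6.7% higher and 5.52% lower. At 1 of 7 genes, each count is the smallest above 0, and nothing is read from it against these backgrounds. The Pparg call was lost in 6 of the 12 fits without a library, at 0.84 without replicate 1 of TG at ZT14, 0.83 without replicate 1 of TG at ZT2, 0.82 and 0.71 without replicates 1 and 2 of WT at ZT14, and 0.76 and 0.74 without replicates 2 and 3 of WT at ZT2. It was also lost with exon reads alone (0.79). On intron reads alone, which stood at 0.941 to 2.48 CPM over the 12 libraries, the WT difference was 1.04 (SE 0.23) and passed. TG against WT on intron reads was 0.59 (SE 0.25) at ZT2 and -1.08 (SE 0.23) at ZT14. The difference between the time differences was -1.67 (SE 0.33) on them, and none of these 3 values passed. They rest on 17 to 58 intron reads per library.

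**Figure D3:**
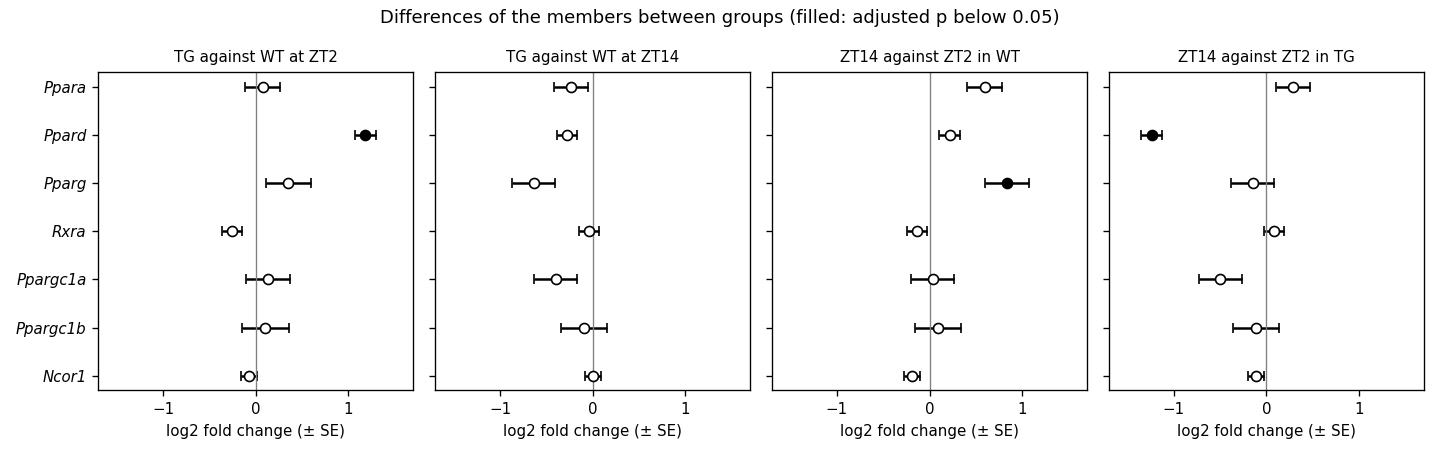
Log2 fold changes with their SE (x axes) of the 7 genes (y axis) between genotypes at each time and between times in each genotype, with filled points for an adjusted p below 0.05 over all genes. Ppard stands at 1.18 between genotypes at ZT2 and at -1.24 between times in TG, and Pparg at 0.84 between times in WT.

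Rxra (ENSMUSG00000015846, chr2:27676440-27762957, plus strand) encodes RXRα, the shared partner of the PPARs and of several other receptors. At ZT2 it stood at 488, 409.9 and 476 CPM in WT and at 426, 353 and 373 CPM in TG. The ZT14 values were 403, 437 and 413 CPM in WT and at 429, 436 and 357 CPM in TG. The groups overlapped at both times. Its log2 fold change was -0.25 (SE 0.11) at ZT2 and -0.04 (SE 0.11) at ZT14, with time differences of -0.13 (SE 0.11) in WT and 0.08 (SE 0.11) in TG. On intron reads alone the ZT2 value was -0.54 (SE 0.19), with 55.5, 48.1 and 60.2 CPM in WT and 41.9, 41.2 and 33.6 CPM in TG, which do not overlap. None of these passed the threshold.

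Ppargc1a (ENSMUSG00000029167, chr5:51454250-51567726, minus strand), which encodes PGC-1α, was low, with 94 to 190 reads per library. It stood at 6.16, 8.10 and 7.08 CPM in WT and 6.46, 10.1 and 6.79 CPM in TG at ZT2. At ZT14 it stood at 6.23, 7.94 and 7.59 CPM in WT and 4.97, 3.97 and 7.55 CPM in TG. The groups overlapped in all 4 comparisons. The largest of its log2 differences between 2 groups was -0.50 (SE 0.24) for ZT14 against ZT2 in TG, which did not pass, but passed at -0.80 without replicate 3 of TG at ZT14, one of the libraries that stood apart. It did not pass without both of these libraries, at -0.59, or in any other alternative run. Its SEs for differences between groups were 0.23 to 0.24.

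Ppargc1b (ENSMUSG00000033871, chr18:61298136-61400431, minus strand), which encodes PGC-1β, stood at 8.61, 20.8 and 12.2 CPM in WT and 17.0, 11.9 and 15.6 CPM in TG at ZT2. The ZT14 libraries gave 12.4, 15.8 and 15.7 CPM in WT and 12.5, 15.1 and 13.5 CPM in TG. Replicate 2 of WT at ZT2 was high and replicate 1 low, so that this group spanned all of the others. Its log2 differences between groups lay between -0.11 and 0.10 with SEs of 0.25, and none passed. The microRNA gene Mir378a lies within it on the same strand. Introns held 46.8% to 65.7% of its reads, the highest share of the 7 genes. Exon and intron reads gave opposite signs at ZT2, with log2 fold changes of -0.28 (SE 0.31) and 0.38 (SE 0.23).

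Ncor1 (ENSMUSG00000018501, chr11:62316426-62458541, minus strand) encodes the corepressor NCOR1 and stayed between 90.4 and 121 CPM. It stood at 115, 121 and 107 CPM in WT and 114, 102 and 110.2 CPM in TG at ZT2. Its ZT14 values were 100.4, 106 and 94.0 CPM in WT and 106, 105 and 90.4 CPM in TG. In WT every library at ZT14 lay below every library at ZT2, with a log2 difference of -0.19 (SE 0.09) that did not pass, and the other groups overlapped. Its log2 fold change was -0.08 (SE 0.09) at ZT2 and 0.01 (SE 0.09) at ZT14; the ZT2 value was 0.03 on intron reads alone, and the ZT14 value changed sign when any 1 of 3 libraries was left out. Ttc19 and Pigl overlap Ncor1 on the opposite strand, 85.2% to 88.6% of its reads mapped uniquely, and the labels do not say whether counting used strand, so its counts are uncertain.

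Among the genes with the most similar course over the 12 libraries, Ppard was nearest to Pgrmc2, Rps6kc1 and Stard13, with Pearson's r of log2 CPM of 0.96, 0.93 and 0.89 among 9346 genes with a mean of at least 5 CPM. Stard13 stood at means of 33.7 and 49.4 CPM in WT and TG at ZT2 and 34.0 and 29.3 CPM at ZT14, and Pgrmc2 at 49.0 and 58.1 CPM and at 51.5 and 49.1 CPM. Ppara was nearest to Nr1i3 (0.92), Mief2 (0.91) and Paqr7 (0.91), and Pparg to Iars2 (0.94), Polr3g (0.92) and Immt (0.88). Nr1i3 encodes the nuclear receptor CAR. Rxra was nearest to Cast (0.95), Ccdc25 (0.94) and Acox3 (0.94), Ppargc1a to Tcf7l1 (0.93), Slc17a1 (0.92) and Fst (0.85), Ppargc1b to Lgals4 (0.82), N4bp2l1 (0.81) and Tmem106a (0.78), and Ncor1 to Pigr (0.95), Ppp2r2d (0.93) and Wdr26 (0.93). These values describe 12 libraries that share their depth and group differences, and were the highest of many. Among the 7 genes themselves r ranged from -0.49 between Ppard and Rxra to 0.55 between Ppara and Pparg.

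The genes around Ppard did not share its ZT2 difference past the threshold. Of 8 tested genes whose bodies reach within 250 kb of it, none was called in TG against WT at ZT2, and their log2 fold changes lay between -0.24 for Fkbp5 and 0.89 for Scube3. Scube3 (SE 0.65, adjusted p = 0.798) and Def6 (0.75, SE 0.54, adjusted p = 0.795), the nearest gene upstream by start, were scarce, with means of 0.591 and 0.493 CPM, so their values are loose. The better measured neighbours Anks1, Zfp523, Fance, Rpl10a, Tead3 and Fkbp5 lay between -0.24 and 0.05 by edgeR's quasi-likelihood test, with adjusted p of 0.743 to 0.944. Fkbp5, a cochaperone of the glucocorticoid receptor, rose at ZT14 in both genotypes, by 1.64 (SE 0.15, adjusted p = 3.53e-05) in WT and 2.16 (SE 0.15, adjusted p = 4.15e-06) in TG. None of the tested genes within 250 kb of the other members passed between genotypes at either time.

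**Figure D4:**
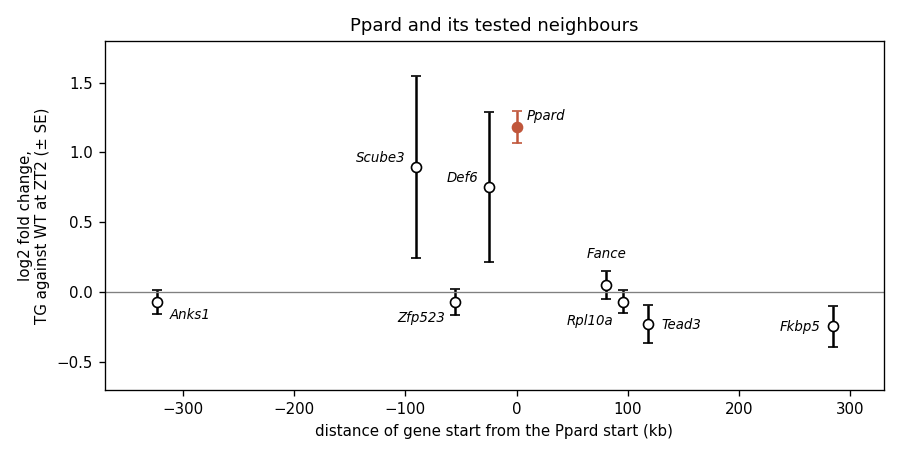
Log2 fold change of TG against WT at ZT2 with its SE (y axis) of Ppard (filled) and of its 8 tested neighbours by the distance of their starts from the Ppard start in kb (x axis). Ppard stands at 1.18 and the 6 better measured neighbours lie between -0.24 and 0.05, while Scube3 and Def6 have wide errors.

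The wider pathway was followed in 8 lists with 130 genes besides the 7, of which 120 could be tested. They held targets of PPARα, PPARδ, PPARγ and PGC-1, other partners of RXR, coactivators, corepressors, and genes that supply fatty acid ligands. The lists were chosen with earlier results of these data known and were not matched to all genes in level. Shares set beside those of all genes are therefore a description. Between genotypes at ZT2 1 of the 120 genes passed, Esrra, which encodes the nuclear receptor ERRα, a partner of PGC-1, and it was lower in TG. Esrra stood at 27.3, 31.3 and 32.4 CPM in WT and 13.3, 14.02 and 16.2 CPM in TG at ZT2, and at 62.1, 52.9 and 52.1 CPM in WT and 29.5, 29.2 and 29.7 CPM in TG at ZT14. By edgeR's quasi-likelihood test it fell at ZT2 by 1.06 on the log2 scale (SE 0.10, adjusted p = 0.000815) and at ZT14 by 0.92 (SE 0.10, adjusted p = 0.00104), and at ZT14 too it was the only one of the 120. Esrra overlaps Trmt112 on the opposite strand, so reads in their shared part are uncertain. The other genes around Esrra were not followed here, so its difference is not shown to be particular to this pathway.

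Over both times 2 of the 120 genes passed between genotypes. They were Esrra and Crat, the carnitine acetyltransferase gene and a PPARα target, at 0.40 (SE 0.07, adjusted p = 0.042 by edgeR). Crat stood at 21.3, 25.3 and 25.3 CPM in WT and 32.7, 35.0 and 38.8 CPM in TG at ZT2, and at 37.6, 35.1 and 35.2 CPM in WT and 45.3, 41.5 and 39.0 CPM in TG at ZT14. The TG libraries lay above the WT libraries at each time, but its call was lost in 11 of 12 fits without a library, with values of 0.35 to 0.42, and kept only without replicate 1 of TG at ZT2.

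None of the 9 tested genes of the PPARδ list was called between genotypes at either time. At ZT2 their median log2 fold change was -0.03 against 0.00 over all genes, with 4 above and 5 below 0 and 3 at an unadjusted p below 0.05. At ZT14 it was -0.08, with 1 gene at an unadjusted p below 0.05. Pdk4, a pyruvate dehydrogenase kinase, stood at 5.17, 8.10 and 6.36 CPM in WT and 13.6, 10.5 and 24.8 CPM in TG at ZT2 (1.33, SE 0.32, adjusted p = 0.343 by edgeR), and Vldlr, the very low density lipoprotein receptor, at 1.22, 1.39 and 1.19 CPM and 1.73, 4.84 and 2.19 CPM (1.21, SE 0.41, adjusted p = 0.560). The libraries do not overlap in either gene, but these genes had the smallest p of the list. The share of all genes whose libraries separate in this way was not counted. The highest Vldlr value, 4.84 CPM, came from replicate 2 of TG at ZT2, which stood apart. Neither passed by edgeR, while DESeq2, and edgeR with no filter on low counts, called Pdk4. Cpt1a, the carnitine palmitoyltransferase that admits fatty acids to mitochondria, stood at -0.18 (SE 0.08, adjusted p = 0.639 by edgeR). Ucp3, Fgf21 and Cpt1b were too scarce to test.

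The other lists showed no call between genotypes at ZT2 apart from Esrra. Medians at ZT2 were -0.05 for 42 tested PPARα targets, 0.06 for 10 PPARγ targets, -0.03 for 20 PGC-1 targets, 0.01 for 12 RXR partners, -0.14 for 14 coactivators, -0.07 for 9 corepressors and -0.10 for 18 genes of ligand supply. Of the 14 coactivators 13 lay below 0 at ZT2, where the median over all genes was -0.003. At ZT14 8 of the 14 lay above 0. With all 12 libraries edgeR called none of them at either time. Among those below 0 at ZT2, Pprc1, a relative of PGC-1α, stood at -0.91 (SE 0.22, adjusted p = 0.343 by edgeR). The acetyltransferase gene Ep300 stood at -0.34 (SE 0.07, adjusted p = 0.137 by edgeR). Pprc1 stood at 18.6, 19.2 and 10.6 CPM in WT and 9.41, 8.47 and 7.86 CPM in TG, and it passed without replicate 3 of WT at ZT2, at -1.14 (adjusted p = 0.0303 by edgeR). It also passed by DESeq2 (adjusted p = 0.0271) and with no filter (adjusted p = 0.0348 by edgeR), while its adjusted p was 0.161 to 0.930 in all other edgeR fits. Cidec, a lipid droplet protein gene and PPARγ target, stood at 6.02, 7.03 and 5.69 CPM in WT and 3.69, 3.52 and 3.69 CPM in TG (-0.78, SE 0.19, adjusted p = 0.348 by edgeR). On exon reads alone the Cidec value changed sign, so a fall of its exon reads is not shown. An unadjusted p below 0.05 was reached by 20 of the 120 genes at ZT2, or 16.7%, against 7.56% of all genes, and DESeq2 called 6 of the 120, namely Crat, Ep300, Esrra, Pdk4, Pprc1 and Srebf1, and 56 of all genes.

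Between times, many genes of the lists changed. In WT 26 of the 120 genes passed, 19 higher and 7 lower at ZT14, which is 21.7% against 9.17% of all genes. In TG 26 passed, 16 higher and 10 lower, against 12.2%. As the lists were chosen with earlier results known and not matched in level, nothing is read from the excess. In WT the count was 14 without replicate 1 of WT at ZT2 and 17 without replicate 3 of WT at ZT14. In TG it was 17 without replicate 1 of TG at ZT14 and 17 without replicate 2 of TG at ZT2, and 16 in a fit of the 6 TG libraries. Of 20 tested PGC-1 targets 6 rose and none fell in WT, and 6 rose and none fell in TG, not all of them the same genes. Srebf1, the regulator of fatty acid synthesis, rose by 1.98 (SE 0.21, adjusted p = 0.000135) in WT and 1.19 (SE 0.20, adjusted p = 0.00283) in TG by edgeR. Esrra rose by 0.88 (SE 0.10, adjusted p = 0.000203) in WT and 1.02 (SE 0.10, adjusted p = 8.02e-05) in TG. Idh3a, a subunit of isocitrate dehydrogenase, rose by 0.59 and 0.60 (SE 0.10 in both, adjusted p = 0.00263 and 0.00212).

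PPARα targets moved both ways between times. In WT 5 of 42 were higher and 2 lower at ZT14, and in TG 5 were higher and 3 lower. The acyl-CoA thioesterase gene Acot3 rose by 3.69 (SE 0.65, adjusted p = 0.00355) in WT and 2.47 (SE 0.53, adjusted p = 0.0101) in TG by edgeR, from 0.470, 0.570 and 0.103 CPM in WT at ZT2. Plin2, which coats lipid droplets and is on the PPARδ list too, fell by 0.68 (SE 0.17, adjusted p = 0.0219) in WT and by 0.93 (SE 0.17, adjusted p = 0.00358) in TG. Pdk4 fell by 1.26 in TG (SE 0.32, adjusted p = 0.0221), and its difference between the time differences, -1.66 (SE 0.45, adjusted p = 0.687 by edgeR), did not pass. Cpt1a rose by 0.35 in TG (SE 0.08, adjusted p = 0.0122 by edgeR), and its difference of 0.42 (SE 0.11, adjusted p = 0.675 by edgeR) passed by DESeq2 only. On intron reads alone both of these Cpt1a values and the WT value of Plin2 had the opposite sign. On the PPARγ list Plin4 rose and Lpl, the lipoprotein lipase gene, fell in both genotypes, by 1.19 (SE 0.28, adjusted p = 0.019) and by 1.38 (SE 0.30, adjusted p = 0.0121) in WT.

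Among the RXR partners in WT, the bile acid receptor gene Nr1h4 rose by 0.73 (SE 0.15, adjusted p = 0.00875), Nr1i3 by 0.86 (SE 0.25, adjusted p = 0.0478) and Nr1i2 by 0.44 (SE 0.13, adjusted p = 0.0455) by edgeR. The thyroid hormone receptor gene Thra fell by 0.68 (SE 0.11, adjusted p = 0.00245) and Nr1h2, which encodes LXRβ, fell by 0.35 (SE 0.10, adjusted p = 0.0486). In TG, Nr1h4 rose, and Thra and Nr1h2 fell. Of the corepressors, Nr0b2, which encodes the bile acid-induced repressor SHP, fell by 1.46 (SE 0.30, adjusted p = 0.00836 by edgeR) in TG. Of the coactivators, Ncoa2 fell by 0.36 (SE 0.10, adjusted p = 0.0356) in WT and Pprc1 rose by 1.27 (SE 0.22, adjusted p = 0.00282) in TG. Of the ligand supply genes, the acyl-CoA synthetase genes Acsl3 and Acsl4 rose in WT by 0.99 (SE 0.16, adjusted p = 0.00244) and 0.57 (SE 0.14, adjusted p = 0.0259), and the fatty acid binding protein gene Fabp5 fell by 1.31 (SE 0.33, adjusted p = 0.0258).

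For the difference between the time differences none of the 120 genes passed by edgeR's quasi-likelihood test, while 15 had an unadjusted p below 0.05 (12.5%, against 5.98% of all genes) and DESeq2 called 1, Cpt1a. A change that passed in one genotype and not in the other is therefore not shown to differ between them.

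**Figure D5:**
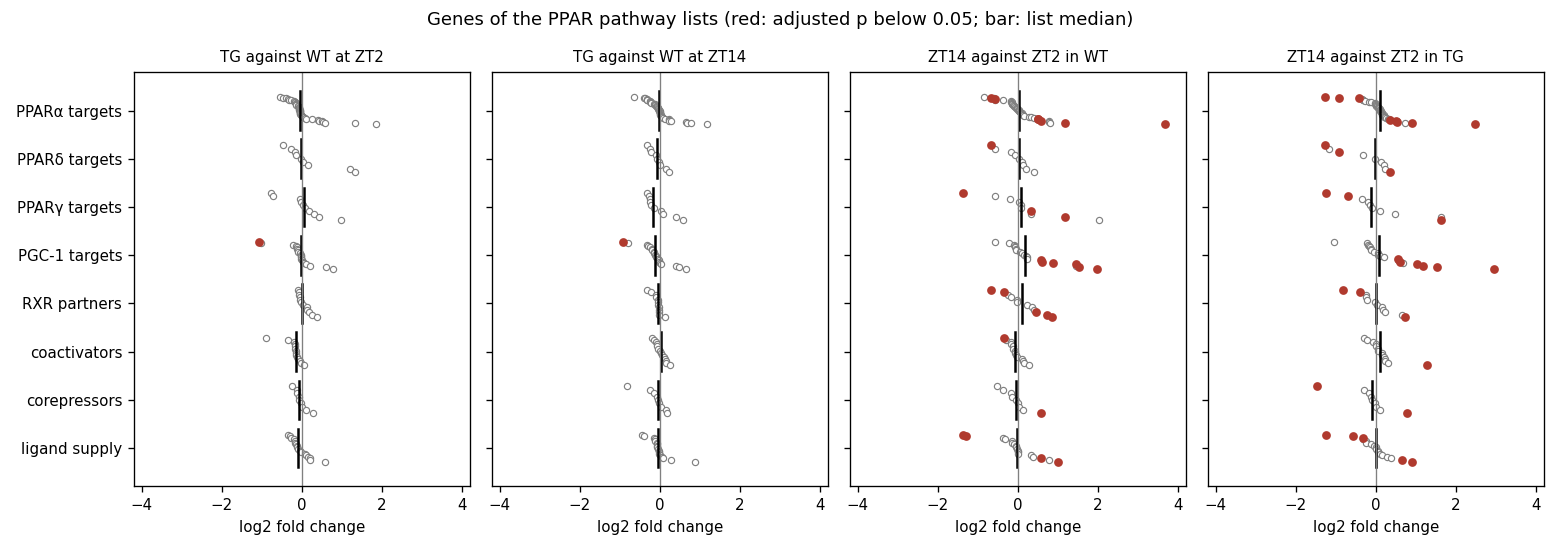
Log2 fold changes (x axes) of the tested genes of the 8 pathway lists (y axis) between genotypes at each time and between times in each genotype, each point a gene, red where the adjusted p was below 0.05, with a bar at the list's median. Between genotypes Esrra alone is red, at -1.06 and -0.92, while 26 genes are red between times in each genotype.

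In bulk liver, fewer cells of a type and less RNA per cell cannot be told apart. Of the marker lists of other cell types, all 9 stellate cell and fibroblast markers had positive log2 fold changes in TG against WT at ZT2, with a median of 0.40, and none was called by edgeR, 4 having an unadjusted p below 0.05. Their summed level was 166 to 225 CPM in WT and 224 to 293 CPM in TG at ZT2, and 186 to 219 and 198 to 265 CPM at ZT14. All 6 cholangiocyte markers were positive too (median 0.59), with sums of 36.0 to 95.2 CPM in WT and 57.7 to 88.8 CPM in TG, and all 6 tested lymphocyte markers (median 0.73), with sums of 1.88 to 4.24 and 3.48 to 8.47 CPM. Of 8 Kupffer cell markers 2 were positive (median -0.11), with sums of 344 to 384 and 287 to 394 CPM. Endothelial sums were 294 to 321 and 310.0 to 315 CPM, with 5 of 7 markers positive, and those of 6 erythroid genes 277 to 350 and 262 to 547 CPM, with 5 of 5 tested genes positive. At ZT14 the erythroid sums were 238 to 270.3 CPM in WT and 291 to 415 CPM in TG, which do not overlap. Of the 5 adipocyte markers Lep was at 0 in every library, the sum stayed at 0.909 CPM or less at ZT2, and 4 could not be tested. Hepatocyte sums were 67945 to 72030.0 CPM in WT and 68842 to 82533 CPM in TG at ZT2. Replicate 2 of TG at ZT2, which stood apart, had the highest hepatocyte, lymphocyte, Kupffer cell and erythroid sums in its group. Its stellate sum was the lowest. The other libraries of this group gave 4.44 and 3.48 CPM for lymphocyte genes and 262 and 341 CPM for erythroid genes. Their Kupffer cell sums, 319 and 287 CPM, lay below all WT sums at ZT2. Their stellate sums, 254 and 293 CPM, lay above them. The part of these lists in the Ppard difference was not tested.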

How the data were processed

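Each library's table holds, per the file headers, read counts per gene that the authors deposited (total, unique, exon, intron and junction reads) and the authors' RPKM. Checked against the counts, RPKM equals exon reads scaled by exon length and total gene reads. The submitters' processing notes name mm10 and GRCm38; the aligner, counter and strand setting: not given in the sources used here. Total gene reads per library were 16035121 to 23981021.

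Counts of all genes were fitted with edgeR 4.0.16 in R 4.3.3, using filterByExpr (minimum count 10, minimum total 15), TMM scaling and the quasi-likelihood test. All 12 samples in 4 groups entered 1 fit, with Benjamini-Hochberg adjustment over 15244 genes and a threshold of 0.05. SE is the log2 fold change divided by the root of F. The fitting was tested on simulated data with 200 changed genes. Named were the 7 genes, up to 4 genes of smallest p per list and comparison, tested genes within 250 kb, the 3 genes of highest r per member, and Nfil3. The members and lists were chosen with earlier results of these data known. Alternatives were DESeq2 1.42.0, RLE factors, library sizes alone, other filters, exon, intron or unique reads alone, the samples of 1 comparison, a replicate block, and leaving out libraries.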

Additional observations from a re-analysis of the deposited data

Results flagged for a closer look

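The time difference of Ppard, TG minus WT, -1.46 on the log2 scale, differed between the genotypes by the test of the difference itself. Ppard was chosen with this value known, so it is a description. The call was lost without any 1 of 3 libraries, at -1.44 without replicate 2 of TG at ZT2, -1.46 without replicate 2 of TG at ZT14 and -1.45 without replicate 3 of WT at ZT14, and on intron reads alone (-0.92).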

How the results depend on the processing

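Over the alternatives, 924 of 952 log2 fold changes of the 7 genes moved by less than the spread between replicates, and 27 of the 28 that moved further came from exon or intron reads alone. The 7 genes called at ZT2 numbered 1, and 0 on intron reads. Over both times they numbered 0, and 1 by DESeq2, on exon reads, with no filter and on unique reads (0 to 1 without a library). For time in WT they numbered 1, 2 by DESeq2, with library sizes alone, with no filter and without both libraries that stood apart, and 0 to 2 without a library. For time in TG they numbered 1, 0 on intron reads, and 1 to 2 without a library. For the difference between the time differences they numbered 1, 0 on intron reads and without both libraries, and 0 to 1 without a library.

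Of the 120 pathway genes, 1 was called at ZT2, 6 by DESeq2, 4 with no filter, 0 on intron reads and 1 to 2 without a library. At ZT14 1 was called, and 0 on intron reads. Over both times 2 were called, 1 on exon reads, 0 on intron reads, 1 without both libraries and 1 to 2 without a library. For time in WT 26 were called, 6 on intron reads and 14 to 30 without a library. For time in TG 26 were called, 17 on intron reads, 16 in the 6 TG samples and 17 to 26 without a library. For the difference between the time differences 0 were called, and 1 by DESeq2.

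All genes called at ZT2 numbered 11, 56 by DESeq2, 43 with no filter, 3 on intron reads and 7 to 22 without a library. At ZT14 they numbered 13, 50 by DESeq2, 41 with no filter, 4 on intron reads and 10 to 17 without a library. Over both times they numbered 22, 73 by DESeq2, 61 with no filter, 4 on intron reads, 12 without both libraries and 13 to 25 without a library. For time in WT they numbered 1398, 239 on intron reads and 770 to 1511 without a library, and in TG 1862, 698 on intron reads, 1150 without both libraries and 1127 to 1873 without a library. For the difference between the time differences they numbered 1, 21 by DESeq2, 4 with RLE factors, 2 on intron reads, 11 with no filter, 4 on unique reads, 2 without both libraries and 0 to 3 without a library.

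Samples were not treated as paired by replicate number. Between groups, the deviations of same-numbered samples from their group means correlated at -0.253 to 0.154. Differently numbered samples were not compared, so these values do not settle whether a batch followed the numbers. With a replicate block 0 of the 7 genes were called for time in WT (Pparg 0.84), 2 pathway genes at ZT14, 1 over both times, and 2 of all genes for the difference between the time differences.

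Of 3584 values of named pathway genes, 223 lost and 62 gained the call, and 22 changed sign, 21 of them on intron reads alone. On intron reads at ZT2, Slc27a2 was 0.093, Cd36 -0.15, Acly -0.52 and Pnpla2 0.072, and on exon reads Cidec was 0.076. At ZT14, Cpt1a was -0.29, Hadhb -0.040 and Fabp5 -1.96. Over both times, Ehhadh was 0.26, Kat2b 0.11 and Acsl4 -0.26. For time in WT, Acaa1a was -0.063, Plin2 0.075, Helz2 0.0083 and Kat2a -0.38. For time in TG, Cpt1a was -0.84, Acaa1a -0.40, Ep300 -0.11 and Acsl5 0.14. For the difference between the time differences, Cpt1a was -0.29, Acly 0.44 and Fabp5 -0.52. The causes were not tested.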
